A study of Petrolisthes cinctipes with 164 samples.

Results

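The response to heat of Petrolisthes cinctipes, the porcelain crab of the rocky shore between the tide lines, was followed here in early and in late recovery, to find which changes faded, which persisted and which arose late. The unit of measurement was the pair differential. It is the log2 intensity of a probe in a heat stressed crab minus that in the control crab of equal time point and replicate number, with both arrays of the pair averaged. Late recovery was the 10 pairs of 24 h and 30 h, and early recovery was the 9 pairs of 1 h and 2 h. These 19 pairs came from 38 crabs and 76 channels, of 41 pairs, 82 crabs and 164 channels in the series, and each differential was measured for all 13818 probes of the cDNA array.

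Heat stressed crabs had been warmed from 11 to 30 °C in 4 h, and control crabs stayed at 11 °C for those 4 h. Both then recovered in water of 11 °C, and the control of every pair was sampled at the same recovery time as its heat stressed partner. Late recovery held 10 heat stressed and 10 control crabs, and early recovery held 9 and 9. The pairs numbered 4 for 1 h and 5 each for 2 h, 24 h and 30 h. The crabs were wild animals, and their age, sex and the dissected tissue are not given in the sources used here. A pair shared array a, with the heat stressed crab in Cy5 and the control in Cy3, and array b with the dyes exchanged, in every pair of both phases.

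Warming of this kind unfolds proteins. Animal cells answer within minutes to hours by transcribing chaperones, the heat shock proteins that refold or hold damaged proteins, and they slow the expression of many other genes. Chaperone transcripts are known to be short-lived once the temperature is back to normal, while repair, protein turnover and replacement can continue for days. The deposited values carry a clone position for each probe and pair no probe with a gene. The transcripts are therefore described by position, except Pc01Hc13 and Pc03Nd19, whose name was read from a figure of the study. Lists of chaperones, ribosomal proteins or tissue markers could not be applied. A few probe positions are given per class, and all others are given by counts and ranges.

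Some arrays stand apart. The SD of a pair differential over all probes lay between 0.23 and 0.51 log2 units in late pairs and between 0.23 and 0.45 in early pairs. Array a and array b of a pair correlated over probes with r between -0.23 and 0.69, and 24 h replicate 1 was the late pair below 0. The pair of 30 h replicate 2 had r = -0.17 with the mean of the other late pairs. In the pairs of 24 h and 30 h replicate 5, titles and descriptions give opposite treatments for array b. The title was used, and with it arrays a and b of these pairs correlated at r = 0.69 and 0.62.

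In late recovery the called changes ran both ways, and in early recovery they ran mostly upward. Late pairs differed from 0 at 359 probes, or 2.6% of 13818, of which 187 (1.35%) were higher and 172 (1.24%) lower in heat stressed crabs (limma, Benjamini-Hochberg adjusted p under 0.05). Early pairs differed from 0 at 141 probes, or 1.02%, of which 127 (0.919%) were higher and 14 (0.101%) lower. The difference itself, late minus early, was called at 88 probes, or 0.637%, with 35 (0.253%) higher and 53 (0.384%) lower in late recovery, and 642 probes had an unadjusted p under 0.05. The differences called ranged from 0.29 to 2.31 log2 units in size, where 1 log2 unit is a 2-fold change, and 50 of the 88 were below 1.

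These counts rest on the pairing of crabs that shared arrays. With no replicate block, on 38 crabs in 4 groups, limma called 0 probes late minus early, 34 in late recovery and 43 in early recovery. With array a alone 287 probes were called late minus early, 24 of them higher, and with array b alone 397, 356 of them higher, so that the balance of directions differed with the dye order.

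**Figure D1:**
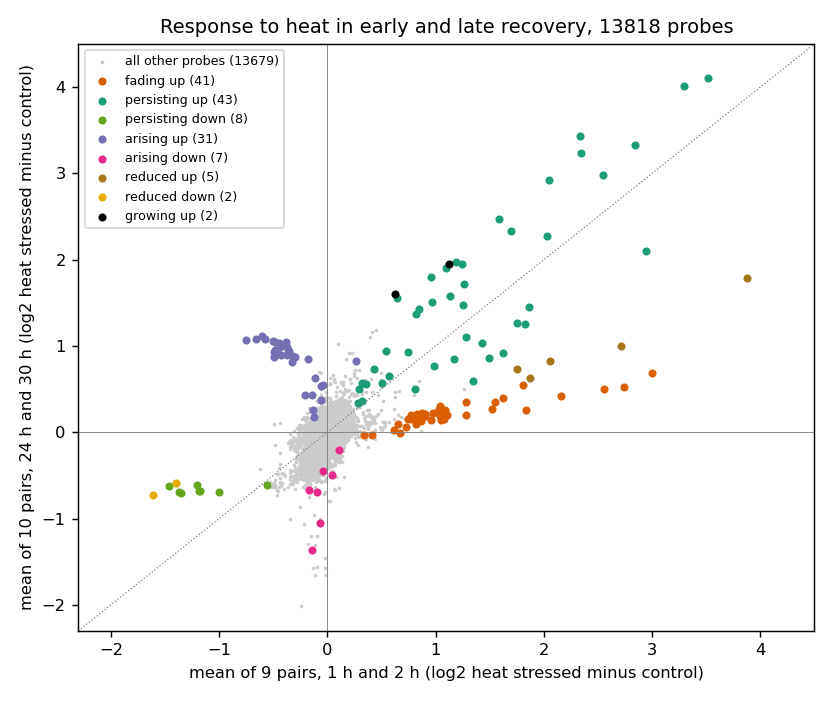
Mean pair differential of each probe in late recovery (vertical axis, 10 pairs of 24 h and 30 h, log2 units) against early recovery (horizontal axis, 9 pairs of 1 h and 2 h, log2 units), coloured by class; the dotted line marks equal response. The 41 fading probes lie along the horizontal axis, the 43 persisting probes with a rise lie near the dotted line, and 30 of the 31 arising probes with a rise lie left of 0 in early recovery.

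Each probe was placed in a class from the 3 tests. A fading response was called early and smaller late, with no call in late recovery. An arising response was called late and larger than early, with no call in early recovery. A persisting response was called in both phases in 1 direction with no called difference, and a reduced or growing response was called in both with a called difference. The classes held 41 fading, 51 persisting, 38 arising and 9 reduced or growing probes. A further 106 probes were called higher and 155 lower in late recovery alone, and 36 higher and 4 lower in early recovery alone, without a called difference between the phases. For these the data did not settle whether the response changed.

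All 41 fading probes were higher in heat stressed crabs in early recovery, and 0 of the 14 early falls were in this class. Their differential in late recovery had a median over probes of 0.20, with a range of -0.03 to 0.68, and in early recovery a median of 1.03, with a range of 0.33 to 3.00. The median over all 13818 probes was 0.02 in late and -0.0031 in early recovery. Each of the 41 lay above 0 in all 9 early pairs. In late recovery 38 of the 41 kept a mean above 0, and 3 had a mean below it. Since the class was formed from these pairs, the values describe it and are no test of it.

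Pc28Gf14 had the lowest p of all probes for late minus early. Its differential in the 10 late pairs had a lowest value of -0.33, a median of 0.58 and a highest of 1.63, against 1.81, 2.79 and 3.73 in the 9 early pairs. No late pair reached the lowest early pair. The mean was 0.53 ± 0.71 late and 2.74 ± 0.60 early (SD, n = 10 and 9 pairs), a difference of -2.21 (SE 0.28, adjusted p = 0.00129 in limma). The largest early differential among the fading probes belonged to Pc02Hd18, with -0.24, 0.41 and 2.14 as lowest, median and highest late value and 2.35, 2.77 and 4.12 early. Its mean was 0.68 ± 0.87 late and 3.00 ± 0.62 early (SD), a difference of -2.31 (SE 0.33, adjusted p = 0.00135 in limma). In both probes the late pairs were split, with values of 1 log2 unit or more in 24 h replicate 4 and in 30 h replicates 1 and 4. For Pc28Gf14 these were 1.63, 1.45 and 1.01, and the other late pairs lay between -0.33 and 0.79. Of all 13818 probes, 6 had every late pair below every early pair and 0 had every late pair above every early pair, and the 6 were fading probes.

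At 12 h and 18 h the fading probes stood nearer their late than their early values. In the 10 pairs of 12 h and 18 h, which played no part in the classes, all 41 fading probes had a mean above 0, with a median of 0.29. Of the 41, 2 were called there, where 188 of all probes (1.36%) were called and 0.579% were called higher. Those pairs differed from early recovery at 2 of all probes (0.0145%), both lower, and late recovery differed from them at 3 (0.0217%), all higher, with 535 and 842 at an unadjusted p under 0.05 in limma. The error of the tests at 12 h and 18 h came from all 41 pairs. It took in 0.5 h replicate 5 and 6 h replicate 1, which ran against the other pairs of their time points. Few calls there do not show that the times were alike. The class mean was 0.37 ± 0.18 in those pairs (SD, n = 10) and lay between 0.09 and 0.60, below the lowest early pair at 0.71. The early pairs had set the class, which favours high early values, so this comparison is a description. Over the pairs of 1 h the class mean averaged 1.27 ± 0.25 (SD, n = 4), and over those of 2 h 1.06 ± 0.28 (SD, n = 5). The pairs of 12 h averaged 0.32 ± 0.10 and those of 18 h 0.43 ± 0.23, followed by 0.15 ± 0.20 for 24 h and 0.30 ± 0.27 for 30 h (SD, n = 5 each). Between the neighbours 24 h and 30 h, and between 1 h and 2 h, limma called 0 probes of 13818, with 442 and 237 at an unadjusted p under 0.05. At 0.5 h the class mean was -0.71 in replicate 5 and between 0.57 and 1.18 in the other 4 pairs, and at 6 h it was -0.93 in replicate 1 and between 0.67 and 1.22 in the other 3. In both of these pairs the persisting classes had the opposite sign too, with a mean of -1.26 and -1.47 for the rises. The 3 pairs of 4 h stood at -0.13, 0.60 and 0.10.

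**Figure D2:**
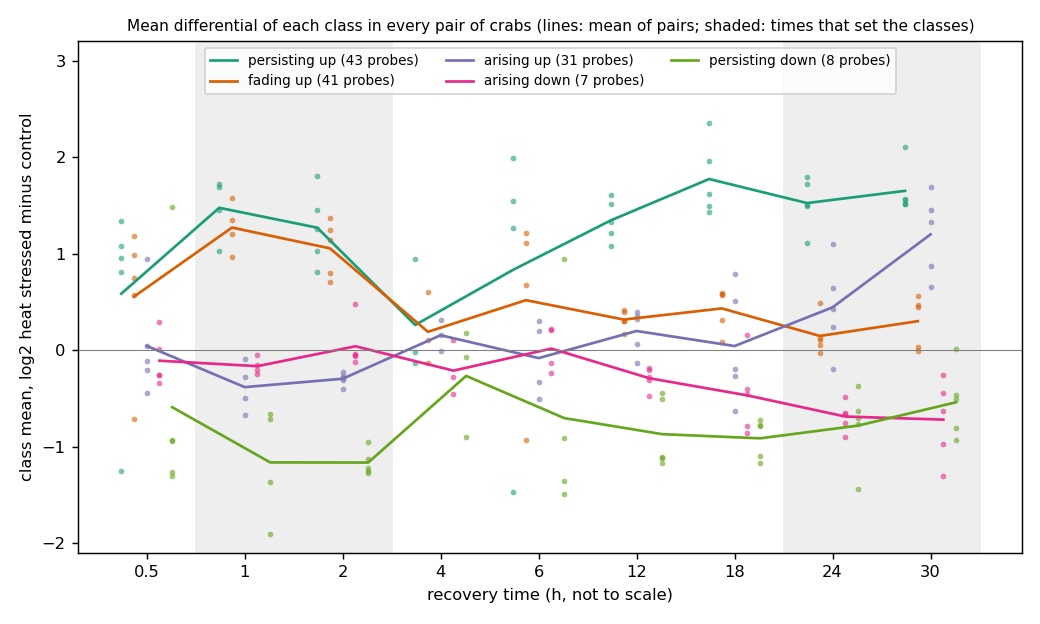
Mean differential of the probes of each class (vertical axis, log2 heat stressed minus control) in every pair of crabs at the 9 recovery times (horizontal axis in h, not to scale); points are pairs, lines join the means of the pairs, and shading marks the times from which the classes were formed. Between 12 h and 30 h the fading class stayed below 0.60 in all pairs while the persisting class with a rise stayed above 1.0, and the arising class with a rise was highest at 30 h.

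A smaller number of early responses shrank but stayed called. The 5 reduced probes with a rise had a median of 0.83 in late and 2.05 in early recovery, and all 5 were called at 12 h and 18 h. Pc28Ge22 had the largest early differential of all these. At 1 h its 4 pairs stood at 4.08, 4.00, 3.90 and 4.27, and its 5 pairs of 2 h at 4.58, 4.05, 3.77, 2.88 and 3.32. At 24 h they stood at 1.81, 2.01, 1.99, 2.78 and 1.97, and at 30 h at 4.01, 1.02, 0.59, 1.46 and 0.24. The pairs of 24 h all lay below those of 2 h, and those of 30 h ranged from near 0 to the height of early recovery, with 30 h replicate 1 the high pair. The mean was 1.79 ± 1.08 late and 3.87 ± 0.51 early (SD, n = 10 and 9), a difference of -2.08 (SE 0.37, adjusted p = 0.00764 in limma).

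The 2 reduced probes with a fall were Pc01Hc13 and Pc03Nd19. Their name, ATP synthase subunit a, was read by eye from a figure of the study, whose text gives the ATP synthase functional group without probe positions. This protein is part of the proton channel of the mitochondrial ATP synthase and in animals is encoded by mitochondrial DNA. The study picked them out on these crabs for a fall after heat, so their early direction is no independent evidence. Pc01Hc13 had a lowest, median and highest differential of -1.64, -0.72 and 0.05 in late pairs, against -2.51, -1.62 and -0.88 in early pairs. All 9 early values and 9 of the 10 late values were below 0, the exception being 30 h replicate 2, and the phases overlapped. The means were -0.73 ± 0.46 late and -1.61 ± 0.47 early (SD), a difference of 0.88 (SE 0.20, adjusted p = 0.046 in limma). Pc03Nd19 had -1.49, -0.49 and 0.03 in late pairs, against -1.995, -1.44 and -0.59 in early pairs, a difference of 0.80 (SE 0.18, adjusted p = 0.046 in limma). In the pairs of 12 h and 18 h, which the classes did not use, the mean of Pc01Hc13 was -1.12 ± 0.36 and that of Pc03Nd19 was -0.97 ± 0.36 (SD, n = 10), below 0 in all 10 pairs for each. Both adjusted p-values lay close to the threshold of 0.05. With 1 of the 19 pairs left out, Pc01Hc13 was still called without 1 h replicate 2 or 24 h replicate 5 and lost its call in the other 17 fits. Pc03Nd19 was still called without those pairs or 30 h replicate 5 and lost its call in the other 16, with adjusted p up to 0.103 for either probe.

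The 43 persisting probes with a rise carried the largest differentials of late recovery. Their median was 1.43 late, with a range of 0.34 to 4.11, and 1.25 early, with a range of 0.29 to 3.52. At 12 h and 18 h the rise was there again in crabs that had not set the class, with a median of 1.42 and 41 of the 43 called, where 0.579% of all probes were called higher. The class mean exceeded 1 in all 10 of those pairs and averaged 1.56 ± 0.37 (SD, n = 10). Pc01Hi06 rose most, with 2.62, 4.19 and 5.53 as lowest, median and highest value in late pairs and 2.48, 3.48 and 4.45 in early pairs. The phases overlapped over most of their range, and the difference of 0.59 (SE 0.32) was not called (adjusted p = 1.00 in limma). Pc04Ni13 had 2.55, 4.24 and 5.17 in late pairs, against 2.40, 3.22 and 4.17 in early pairs, and its difference of 0.72 (SE 0.33) was not called either (adjusted p = 1.00 in limma). Persisting thus covers probes whose response may have grown or shrunk by less than these data resolve. In simulated data a difference of 0.5 log2 units between the phases was recovered at 58.2% of changed probes, and 1 log2 unit at 94%. The changed probes were drawn at random from all probes, with errors independent between probes. These rates therefore need not hold for Pc01Hi06 and Pc04Ni13, with SE of 0.32 and 0.33, or for the persisting class.

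The 2 growing probes were called at a larger rise in late recovery. Pc05Wk18 had 1.09, 1.57 and 2.41 as lowest, median and highest differential in late pairs and -0.20, 0.68 and 1.33 in early pairs, a difference of 0.98 (SE 0.19, adjusted p = 0.0136 in limma). Pc09Hh12 had 1.37, 1.98 and 2.44 in late pairs and 0.38, 1.08 and 1.79 in early pairs, a difference of 0.82 (SE 0.17, adjusted p = 0.0242 in limma). In both the late and early ranges overlapped. Pc09Hh12 lost its call without 1 h replicate 3, 2 h replicate 2 or 3, 24 h replicate 5, or 30 h replicate 3 or 5 (adjusted p up to 0.0538), and with quantile normalization its difference was 0.47 (adjusted p = 0.312 in limma). With array b of 24 h and 30 h replicate 5 turned, the differences were 0.63 for Pc05Wk18 and 0.37 for Pc09Hh12 (adjusted p = 0.999 in limma for each). At 12 h and 18 h their means were 1.37 ± 0.43 and 1.66 ± 0.52 (SD, n = 10), between those of the phases.

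Lasting falls were fewer. The 8 persisting probes with a fall had a median of -0.68 in late and -1.19 in early recovery, and 7 of the 8 were called lower at 12 h and 18 h, where 0.782% of all probes were. With 1 pair left out there were 5 such probes without 24 h replicate 5 and 12 without 30 h replicate 2. For 7 of the 8 the late mean was nearer 0. The class mean was -0.66 ± 0.38 in late pairs and -1.16 ± 0.37 in early pairs (SD, n = 10 and 9), and in 30 h replicate 2 it was 0.007. Pc36Hk10 was the member with a value below 0 in all 19 pairs, with -1.02, -0.75 and -0.08 as lowest, median and highest late value and -1.67, -0.89 and -0.57 early. Its difference of 0.31 (SE 0.15) was not called (adjusted p = 1.00 in limma).

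**Figure D3:**
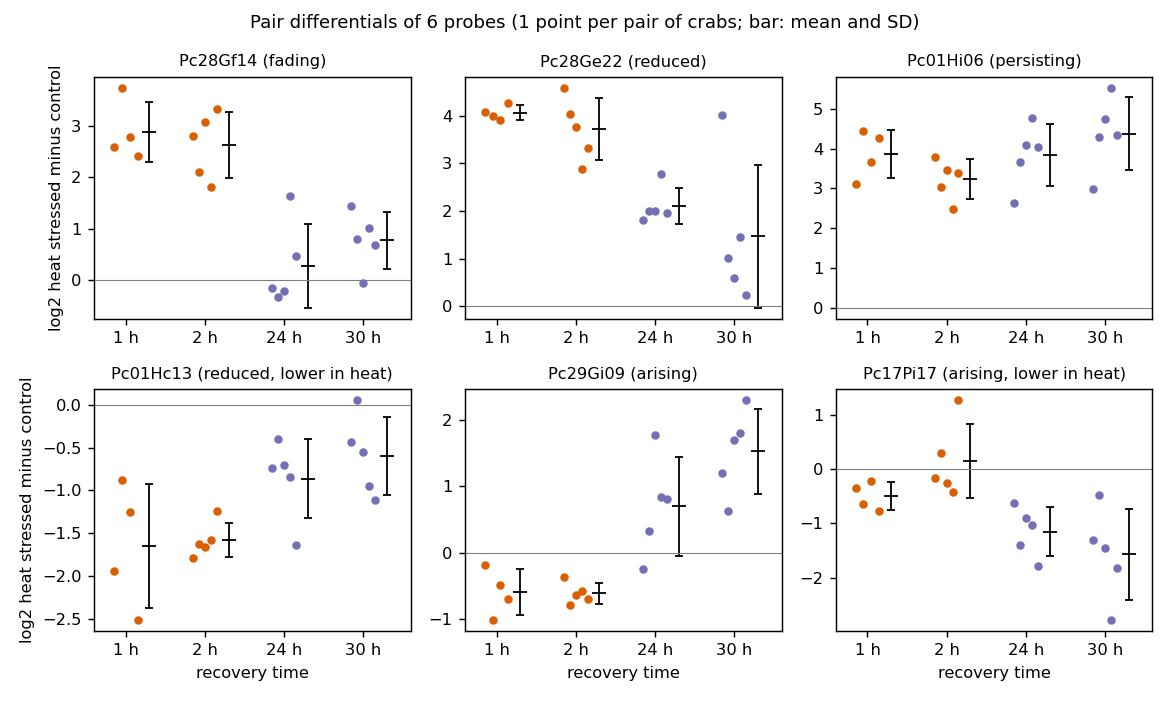
Pair differentials (vertical axes, log2 heat stressed minus control) of 6 probes at 1, 2, 24 and 30 h of recovery (horizontal axes); each point is a pair of crabs, and the bar beside it gives the mean and SD of the time point. Pc28Gf14 falls towards 0 late, Pc01Hi06 stays above 2 in all pairs, and Pc29Gi09 lies below 0 in all early pairs and above 0 in 9 of 10 late pairs.

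The 31 arising probes with a rise had no call in early recovery, and 30 of them had an early mean below 0. Their median differential was 0.89 in late recovery, with a range of 0.17 to 1.11, and -0.37 in early recovery, with a range of -0.75 to 0.26. Of the 31, 18 lay below 0 in all 9 early pairs. No member was called in early recovery. The class was formed from these pairs for a large difference between the phases, which favours low early values, so the early values describe it and are no test of it. In late recovery 26 of the 31 were below 0 in 24 h replicate 1, the pair whose arrays correlated below 0, and 30 were above 0 in the other 9 late pairs. Without that pair 49 probes arose, 40 of them with a rise.

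Among these, Pc29Gi09 had early values of -0.18, -1.01, -0.49 and -0.69 at 1 h and of -0.36, -0.78, -0.63, -0.57 and -0.69 at 2 h. Its late values were -0.24, 0.32, 1.77, 0.84 and 0.81 at 24 h and 1.21, 0.63, 1.70, 1.81 and 2.29 at 30 h. The ranges overlapped through 24 h replicate 1 alone. The mean was 1.11 ± 0.78 late and -0.60 ± 0.24 early (SD), a difference of 1.71 (SE 0.26, adjusted p = 0.00209 in limma). Pc06Wh11 was the 1 member with an early mean above 0, at 0.26 ± 0.20, against 0.83 ± 0.36 late (SD), and was above 0 in all 10 late pairs and in 8 of 9 early pairs. Its difference was 0.57 (SE 0.13, adjusted p = 0.0474 in limma). This call was kept without 1 h replicate 2, 24 h replicate 1 or 2, or 30 h replicate 4 or 5 and lost in the other 14 fits with 1 pair left out (adjusted p up to 0.106).

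The late rise of this class was mostly that of 30 h. The class mean was 0.44 ± 0.48 at 24 h and 1.20 ± 0.43 at 30 h (SD, n = 5 pairs each), and all 31 probes had the higher mean at 30 h. The step was not called at any of them (lowest adjusted p = 0.995 in limma), although 26 of the 31 had an unadjusted p under 0.05, and over all probes 366 were higher and 76 lower at 30 h at that level. With the 30 h pairs alone as late recovery, 33 probes arose, all with a rise. With the 24 h pairs alone 9 arose, all with a fall, and 1 of these 9 was among the 38. At 12 h and 18 h the class mean was 0.12 ± 0.43 (SD, n = 10), above 0 in 6 of 10 pairs, and 1 of the 31 was called higher, where 0.579% of all probes were. The class also leaned on the pairs of replicate 5: with array b of these pairs turned as the descriptions give it 4 probes arose, without both pairs 22, and with their array a alone 33.

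The 7 arising probes with a fall had a median of -0.67 in late and -0.07 in early recovery. Pc17Pi17 was the lowest, with -2.78, -1.36 and -0.48 as lowest, median and highest late value and -0.78, -0.26 and 1.26 early. All 10 late pairs and 7 of 9 early pairs were below 0. The mean was -1.36 ± 0.67 late and -0.14 ± 0.61 early (SD), a difference of -1.22 (SE 0.28, adjusted p = 0.046 in limma), kept without 1 h replicate 4, 24 h replicate 1 or 30 h replicate 2 and lost in the other 16 fits with 1 pair left out (adjusted p up to 0.095). In the pairs of 12 h and 18 h the class mean was -0.38 ± 0.29 (SD, n = 10), below 0 in 9 of 10, and 3 of the 7 were called lower, where 0.782% of all probes were. This class was not stable. It shrank to 1 fall when any 1 of 6 pairs was left out (2 h replicates 3 and 5, 24 h replicates 4 and 5, 30 h replicates 3 and 5), grew to 16 without 30 h replicate 2, and held 0 without both late replicate 5 pairs or with the 30 h pairs alone. Of the 155 probes called lower in late recovery alone, 61 were called lower at 12 h and 18 h too.

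A differential can change through the heat stressed crab, the control crab or both, and the levels of each were compared after centring every channel on its median. Late minus early, 3873 probes differed in heat stressed crabs, 28% of all, and 4251 in control crabs, 30.8% (limma). Time of sampling, arrays and handling cannot be told apart in these levels, since every array held 1 time point. The median over all probes was a difference of -0.10 in heat stressed and -0.11 in control crabs.

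Among the 41 fading probes the median difference was -0.29 in heat stressed crabs and 0.54 in control crabs. In heat stressed crabs 16 were called lower and 3 higher late, where 15.6% and 12.4% of all probes were. In control crabs 1 was called lower and 15 higher, where 17.7% and 13.1% of all probes were. The class was formed from these same crabs for a fall of the differential. That favours lower late levels in heat stressed crabs, higher ones in control crabs, or both. These counts therefore describe the class and are no test of it. In 19 of the 41 the difference was larger in size in heat stressed crabs, and in the others it was larger in control crabs. Pc28Gf14 stood at 1.82 ± 0.71 late and 3.44 ± 0.78 early above the channel median in heat stressed crabs, and at 1.30 ± 0.72 late and 0.71 ± 0.37 early in control crabs (SD, n = 10 late and 9 early). Its fall in heat stressed crabs was -1.62 (adjusted p = 9.82e-05 in limma), and its difference in control crabs of 0.59 was not called (adjusted p = 0.118 in limma). Pc35Hi17, another fading probe with a p among the 6 lowest for late minus early, had -0.31 in heat stressed crabs (adjusted p = 0.344 in limma) and 0.59 in control crabs (adjusted p = 0.0642 in limma). The reduced probe Pc28Ge22 differed by -1.93 in heat stressed crabs (adjusted p = 0.000583 in limma) and by 0.15 in control crabs (adjusted p = 0.807 in limma).

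Arising probes with a rise were higher late in crabs of both treatments, by a median of 2.30 in heat stressed and 0.97 in control crabs. Of the 31, 28 and 21 were called, against 12.4% and 13.1% of all probes called higher. The class was formed from these same crabs for a rise of the differential, which favours higher late levels in heat stressed crabs. The counts therefore describe the class and are no test of it. For Pc29Gi09 the differences were 2.69 in heat stressed (adjusted p = 1.02e-08 in limma) and 0.97 in control crabs (adjusted p = 0.0126 in limma). The 8 persisting probes with a fall were also higher late in both, all 8 called in each, by a median of 1.78 in heat stressed and 1.26 in control crabs. Pc01Hc13 stood at 3.81 ± 0.61 late and 2.02 ± 0.64 early above the channel median in heat stressed crabs, and at 4.54 ± 0.50 late and 3.63 ± 0.77 early in control crabs (SD). The persisting probes with a rise differed less in control crabs, by a median of 0.06, against 0.48 in heat stressed crabs, where 15 of the 43 were called higher late.

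**Figure D4:**
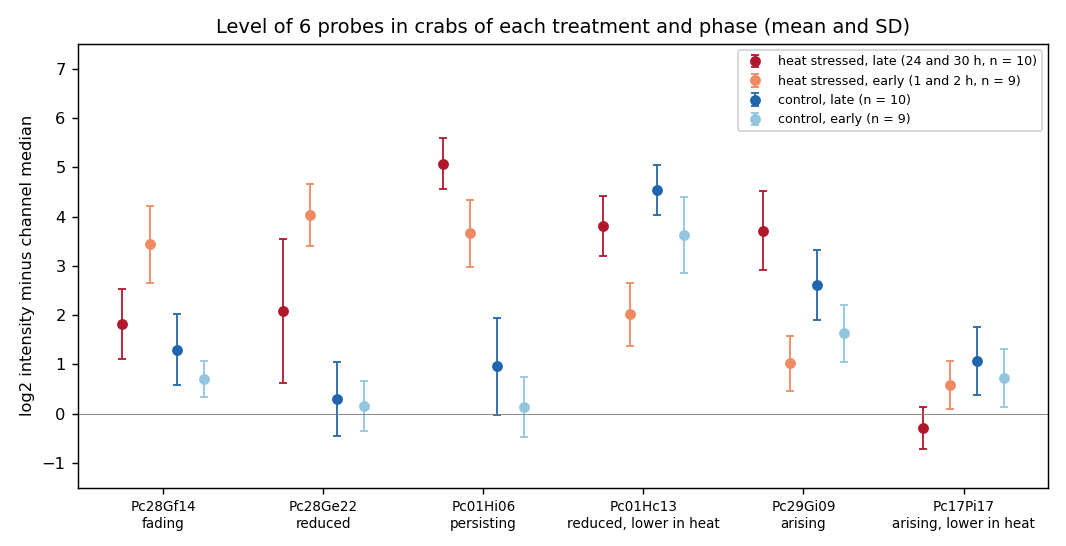
Level of 6 probes (vertical axis, log2 intensity minus the median of the channel) in heat stressed and control crabs of late and early recovery (horizontal axis, probes with their class); points are means and bars SD over 10 late and 9 early crabs. Pc28Gf14 and Pc28Ge22 were lower late in heat stressed crabs, while Pc01Hc13 and Pc29Gi09 were higher late in crabs of both treatments.

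The correlation among members of a class was also taken in crabs that had not set it. Over the 22 pairs of 0.5, 4, 6, 12 and 18 h, the differentials of 2 fading probes correlated with a median r of 0.78 (820 correlations), those of 2 persisting probes with a rise with 0.84 (903), of 2 persisting probes with a fall with 0.93 (28), and of 2 arising probes with a rise with 0.82 (465). For 2 arising probes with a fall the median r was lower, at 0.49 (21 correlations, lowest 0.18). These are descriptions: probes on the same arrays share the error of the array, and among the 22 pairs 0.5 h replicate 5 and 6 h replicate 1 ran against the rest. In arising probes with a rise 28 of the 465 were below 0. Pc06Wh11 had a median r of -0.33 with the other members, and every other member had a median of 0.31 or more. Several spots may carry the same transcript, and without gene names or clone sequences it was not tested how many transcripts a class holds.

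The clone positions were unequally shared out. Each probe position carries a letter that is the same for all probes of 1 plate number, and its meaning is not given in the sources used here. Letter G marked 16.7% of all probes, but 46.3% of the fading and 45.2% of the arising probes with a rise, and 20.9% of the persisting probes with a rise. Letter N marked 5.56% of all probes, 20.9% of the persisting probes with a rise and 5 of the 8 with a fall. No test was made of these shares.

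The spread of the pair differential over the whole array overlapped between the phases, and the test did not call a difference. This spread holds differences between crabs and between arrays as well as any response to heat, so it does not measure the size of the response alone. The SD of the pair differential over all probes was 0.37 ± 0.09 in late pairs and 0.33 ± 0.07 in early pairs (SD, n = 10 and 9), a difference of 0.044 (exact two-sided permutation test, p = 0.256). Pairs of 1 phase correlated little more over probes than pairs of different phases, with a median r of 0.23 among late pairs, 0.19 among early pairs and 0.17 between late and early pairs.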

How the data were processed

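The authors deposited 1 processed log2 intensity per probe and channel of cDNA arrays hybridised with Cy5 and Cy3. The scale is taken as log2 from the range of the values (highest value of a channel 15.1 to 16.6), and their background correction and normalization are not given in the sources used here. No value was missing. The number of arrays limits the precision.

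Groups came from the sample titles. Both dyes of a crab were averaged, control was subtracted from heat stressed, and the 19 pair differentials were fitted with limma 3.58.1 in R 4.3.3 (2 phase means, lmFit and eBayes) with Benjamini-Hochberg adjustment over 13818 probes and a threshold of 0.05. Pairs of 12 h and 18 h were tested in a fit of 9 time point means over 41 pairs. The pairing comes from shared arrays. In each of the 19 early and late pairs the deviations of the paired crabs from their group means correlated (r from 0.54 to 0.94). Levels were fitted on 38 crabs after centring each channel on its median.

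Probes were named by rule: the lowest p of late minus early in each direction, and per class and direction the largest differentials of the defining phase with 1 sign in all its pairs. Fewer are printed than the rule gives, and members, lists and tests were chosen with earlier results of these data known. Crabs are separate animals, and n counts pairs of crabs for differentials and single crabs for levels. The fit was tested on simulated data for late minus early, 13818 probes with 200 changed, where 8 of 176 calls were false. The simulated errors were independent between probes, whereas probes on the same arrays share error. This rate of false calls need not hold for the measured data. Alternatives covered the pairing, dye order, labels, normalization, dim probes, moderation, weights, the choice of time points and each pair left out. Figures were drawn with matplotlib 3.10.9 in Python 3.11.15.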

Additional observations from a re-analysis of the deposited data

Results flagged for a closer look

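The difference between late and early recovery was tested itself at each probe, and 88 probes were called. Among the probes named, the called differences, late minus early, were -2.21 for Pc28Gf14, -2.31 for Pc02Hd18, -2.08 for Pc28Ge22, -0.91 for Pc35Hi17 and -1.22 for Pc17Pi17, and 0.88 for Pc01Hc13, 0.80 for Pc03Nd19, 0.98 for Pc05Wk18, 0.82 for Pc09Hh12, 1.71 for Pc29Gi09 and 0.57 for Pc06Wh11.

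In the 7 arising probes with a fall, the pair of 2 h replicate 5 stood far from the other early pairs. Its class mean was 0.47, and the other 8 early pairs lay between -0.24 and -0.04. It was the 1 far pair in 40 groups of pairs looked at, and chance alone marks about 1 group in 20. That rate is for independent groups. The groups here shared pairs and probes, and the class was formed from these pairs, so the rate need not hold.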

How the results depend on the processing

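Without the replicate block, on unpaired crabs, the calls were 0 late minus early, 43 early and 34 late, with 0 fading, 18 persisting and 0 arising probes, against 88, 141, 359, 41, 51 and 38 on pair differentials. With channels centred in that fit, chosen after seeing the data, they were 2, 59, 48, 2, 24 and 0. Array a alone gave 287 late minus early, 401 early, 122 fading and 76 arising probes, and array b alone gave 397 late minus early, 1317 late, 19 fading, 81 persisting and 312 arising probes. With array b of 24 h and 30 h replicate 5 turned, 55 were called late minus early and 125 late, and 4 arose. Without both pairs, chosen after seeing the data, 54 were called late minus early and 228 late, 26 faded and 22 arose. The cause was not tested.

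With 24 h alone as late, also chosen after seeing the data, 36 were called late minus early and 127 late, 25 faded and 9 arose. With 30 h alone 48 were called late minus early and 165 late, and 12 faded. With all 41 pairs 25 faded, and 1 probe was called between 1 h and 2 h, against 0. With the 0.5 h pairs in early recovery 7 faded and 81 arose. Of these pairs, replicate 5 ran against the other 4, and without it (chosen after seeing the data) 144 were called late minus early, 42 faded and 79 arose. At 1 log2 unit or more, 38 late minus early, 62 early and 58 late calls were left, with 13 fading, 23 persisting and 9 arising probes. With quantile normalization 2567 probes differed late minus early in heat stressed crabs, against 3873.

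With 1 pair left out in turn, calls ranged from 61 to 103 late minus early, 122 to 144 early and 262 to 445 late, with 30 to 50 fading, 45 to 55 persisting and 25 to 49 arising probes. The 25 arising probes were left without 30 h replicate 3. Likewise 0 to 1 were called between 1 h and 2 h, the 1 without 1 h replicate 1, and 0 between 24 h and 30 h. At 12 h and 18 h 111 to 232 were called against 0 (188 with all pairs), with 111 without 18 h replicate 3, 122, 123 and 115 without 12 h replicates 3, 4 and 5. For those times minus early 0 to 4 were called (2 with all pairs), and for late minus those times 3 to 8 (3 with all pairs, 8 without 30 h replicate 1). In levels 2797 to 5077 differed in heat stressed and 3186 to 5386 in control crabs, and the difference in SD lay between 0.029 and 0.060. The other alternatives left the counts within 1.5 times.

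Without the replicate block the 11 probes called and printed all lost their call, and with channels centred there Pc28Gf14 kept it (adjusted p = 0.032 in limma). With the 0.5 h pairs in early recovery Pc28Gf14 (adjusted p = 0.0546), Pc02Hd18 (0.0944) and Pc28Ge22 (0.842) lost theirs in limma, and all of them kept it without 0.5 h replicate 5. With all 41 pairs Pc02Hd18 (adjusted p = 0.0884) and Pc28Ge22 (0.601) lost theirs, and with 30 h alone as late Pc28Ge22 did (0.0508). Of the 14 probes printed, 2 changed direction, both with array b of 24 h and 30 h replicate 5 turned and neither called: Pc01Hi06 at -0.25 and Pc04Ni13 at -0.14.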
